A study of Homo sapiens with 12 samples.

Results

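The 10 genes described here are the core glycolysis enzymes and the main glucose transporter of most cultured cells: SLC2A1, HK2, PFKP, ALDOA, GAPDH, PGK1, PGAM1, ENO1, PKM and LDHA. They were found by gene name in the table of all genes and are 10 of 60612 genes in it. All 10 passed the filter on low counts, and 25 annotated transcripts of PKM were read from the matching table of 229420 transcripts. The libraries came from LX2, an immortalised human hepatic stellate cell line that the labels call wild type, so every group is the same single line. All cells were seeded for 24 h and starved of serum for 16 h. Control libraries received no further agent, TGFb libraries received TGFb at 5 ng/ml for 16 h, and the third group was pretreated for 3 h with a compound labelled STINGX, at 10 µM, and then given that TGFb treatment. Each group has 4 libraries of poly(A) RNA, and the compound was always followed by TGFb, so its effect without TGFb was not analysed here. The labels do not say whether the 4 replicates were separate cultures, so p-values measure the spread between these libraries, which may be technical.

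Glycolysis turns glucose into pyruvate in the cytosol. A transporter admits glucose, hexokinase and phosphofructokinase spend ATP to commit it, aldolase splits it, and the enzymes from GAPDH to pyruvate kinase recover ATP and NADH before lactate dehydrogenase regenerates NAD+. Hepatic stellate cells store vitamin A in the healthy liver and become collagen-producing, contractile cells in fibrosis, a change that TGFb drives and that is known to draw on aerobic glycolysis.

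The libraries held between 54035320 and 70787741 estimated counts on genes. Of 12 stellate cell and fibroblast markers, 10 passed the filter, while DES and LRAT, which define quiescent or perivascular stellate cells, were at 0 in all 12 libraries. The summed level of that list was 6190 to 6320 counts scaled to library size (CPM) in control, 10600 to 10900 with TGFb and 5060 to 5560 with STINGX and TGFb. COL1A1 made much of the sum, at 2307, 6367 and 1644 CPM. With TGFb against control, 6 of the list were called higher and 3 lower (COL3A1, RGS5 and HAND2), beside 13.2% and 12.8% of all genes. With STINGX and TGFb against control, 1 was called higher (TAGLN) and 6 lower, beside 17.2% and 17.0% of all genes. The hepatocyte list summed to at most 10.7 CPM, with ALB and TTR at 0. The macrophage and leukocyte list summed to 72.8 to 80.8, 30.2 to 35.6 and 74.7 to 90.2 CPM in the same order of groups. Most of that sum was CD68, at 59.6, 24.4 and 75.9 CPM. CD14 was at 15.7, 2.42 and 2.30 CPM and CSF1R at 1.24, 6.03 and 3.47 CPM. The cholangiocyte and epithelial list summed to 44.7 to 48.8, 56.7 to 65.1 and 29.4 to 30.7 CPM. Only KRT7 and SOX9 of it passed the filter, at 14.8, 29.45 and 9.79 CPM and at 31.5, 30.8 and 20.45 CPM. The sums of these lists move with the groups, although their genes do not all move alike. Their part in the results was not tested. The third principal component of all genes set replicates 1 and 2 (-43.0 to -13.4) apart from replicates 3 and 4 (17.9 to 49.4) within control and within TGFb, while the STINGX and TGFb libraries lay between -4.39 and 3.26. The labels name no batch that matches this division. Control replicates 1 and 2 were also above control replicates 3 and 4 for SLC2A1, ALDOA, GAPDH, PGK1, PGAM1, ENO1 and PKM. A fit with a term for the division, chosen after seeing the data, kept every call of the 10 genes and added that of GAPDH in STINGX and TGFb against TGFb. Other ways in which the division bears on the results were not tested.

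PKM, the last ATP-yielding enzyme, has a pair of mutually exclusive exons that decide between the M1 and M2 forms of pyruvate kinase, and they are printed because they define the transcript classes used below. Both lie on the minus strand of GRCh38 and are 167 bases long. Capitals mark the positions at which the exons differ, 105 positions (62.9%) being identical, and the sequences follow the GENCODE 29 transcripts 5′ to 3′.
PKM M1 exon, chr15:72203022-72203188: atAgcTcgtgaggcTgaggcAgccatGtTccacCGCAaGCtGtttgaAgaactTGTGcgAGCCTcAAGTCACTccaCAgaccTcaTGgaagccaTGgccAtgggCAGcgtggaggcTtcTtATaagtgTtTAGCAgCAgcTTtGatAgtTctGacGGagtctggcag
PKM M2 exon, chr15:72202454-72202620: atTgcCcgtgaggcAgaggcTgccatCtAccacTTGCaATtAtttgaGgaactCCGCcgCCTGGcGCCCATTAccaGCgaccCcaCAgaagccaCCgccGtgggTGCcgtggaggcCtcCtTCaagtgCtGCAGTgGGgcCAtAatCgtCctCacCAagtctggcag

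The promoters of LDHA and PGK1 are printed because these members differed most between the group means. The windows are the 250 bases before a transcription start in RefSeq on GRCh38.p14, both on the plus strand, and all 10 members matched the promoter table by symbol, with 17 windows. Capitals mark ACGTG on either strand (CACGT where it lies on the other strand), the core of the hypoxia response element. CACGTG, the E-box read by MYC and MLX family factors, contains ACGTG on both strands and is counted under both motifs.
LDHA, chr11:18394313-18394562: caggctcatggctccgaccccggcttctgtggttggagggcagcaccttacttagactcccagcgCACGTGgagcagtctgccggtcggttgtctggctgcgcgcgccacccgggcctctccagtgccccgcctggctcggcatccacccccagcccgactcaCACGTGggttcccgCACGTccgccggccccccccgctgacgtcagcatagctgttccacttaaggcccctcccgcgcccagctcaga
PGK1, chrX:78103998-78104247: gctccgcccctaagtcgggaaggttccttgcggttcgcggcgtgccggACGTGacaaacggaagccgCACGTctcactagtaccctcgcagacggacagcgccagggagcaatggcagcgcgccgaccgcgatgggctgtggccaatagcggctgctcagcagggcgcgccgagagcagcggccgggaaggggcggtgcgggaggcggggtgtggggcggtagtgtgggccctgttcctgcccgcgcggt

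ACGTG occurred in 9 of the 17 windows, against 18.5% of 35116 windows of all genes. These windows belonged to 6 of the 10 members (HK2, PFKP, ALDOA, GAPDH, PGK1 and LDHA). CACGTG occurred in 4 of the 17 windows, against 6.34% of all windows, in 4 members (HK2, ALDOA, GAPDH and LDHA). The GC-box GGGCGG was found in 12 of the 17 windows, against 42.6% of all windows, with all 10 members among them. The shares are per window, and the 10 members have 17 windows, so the member counts are not to be set against them. A match describes the letters only and is not a binding site.

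Per transcript length, the members spanned from 14.5 to 2023 FPKM (fragments scaled to transcript length and library size) in the control means. GAPDH stood first at 2023 FPKM and held 63.2% of the members' summed FPKM, followed by ENO1 at 353.5, PKM at 174.4 and ALDOA at 171.2 FPKM. PGK1, PGAM1 and LDHA lay between 124.2 and 142 FPKM, PFKP at 43.0, SLC2A1 at 15.1 and HK2 at 14.5 FPKM. The library ranges of PKM and ALDOA, PGK1 and PGAM1, PGAM1 and LDHA, and SLC2A1 and HK2 overlapped, so the order within these pairs was not resolved. By group means, PGAM1 took the third place and PKM the sixth with TGFb, and SLC2A1 was below HK2 with STINGX and TGFb. The ranges of PGAM1 and ALDOA, PGK1 and PKM, PKM and LDHA, and SLC2A1 and HK2 overlapped with TGFb, as did those of ALDOA and PKM and of HK2 and SLC2A1 with STINGX and TGFb, so these orders were not resolved either. The enzymes that commit glucose were measured at FPKM levels below those of the ATP-yielding steps (PGK1 and PKM) in every group.

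**Figure D1:**
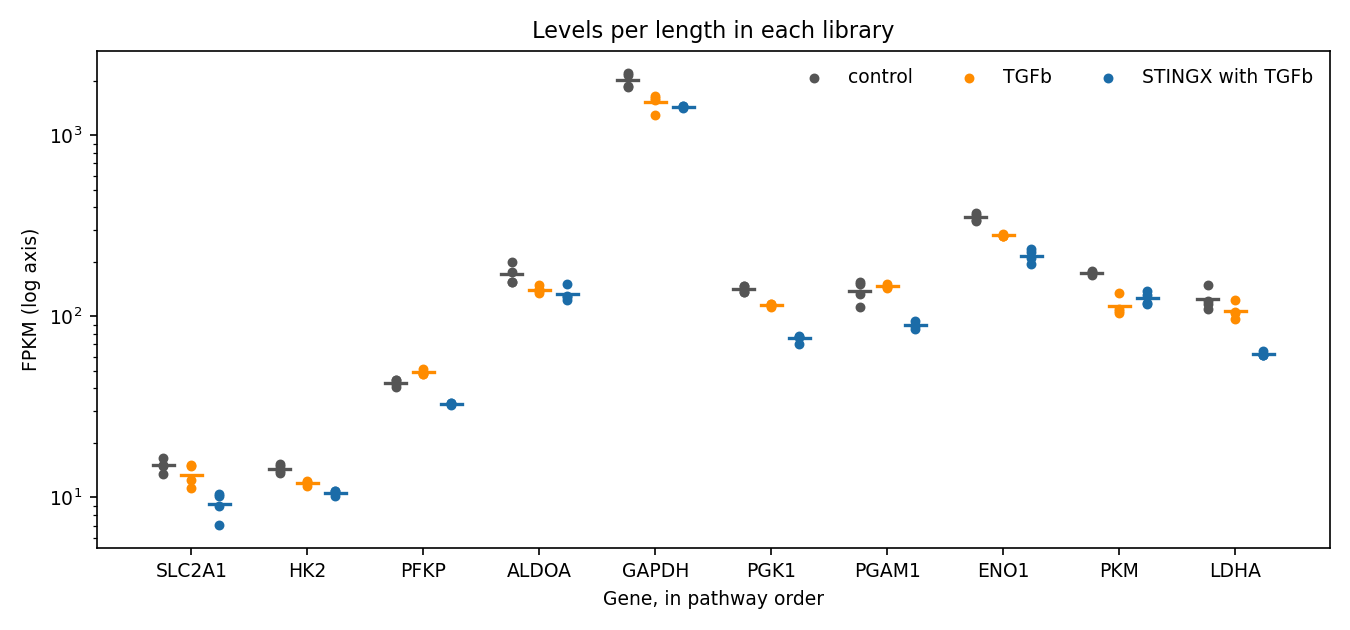
FPKM (log axis) of the 10 genes in pathway order; points are single libraries, bars are means of 4, and colours are the 3 groups. GAPDH is the highest gene in every library, and SLC2A1 and HK2 the lowest pair.

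TGFb alone lowered 5 members, HK2, GAPDH, PGK1, ENO1 and PKM, and raised 1, PFKP, whereas the same TGFb after STINGX left all 10 members below control. Relative to TGFb alone, the STINGX libraries were lower for 7 members, SLC2A1, HK2, PFKP, PGK1, PGAM1, ENO1 and LDHA, and higher for none. LDHA, which reduces pyruvate to lactate, fell from 894.9 ± 114.5 CPM (SD, n = 4) in control to 424.8 ± 12.4 CPM with STINGX and TGFb, and PGK1, the first ATP-yielding enzyme, from 922.7 ± 57.8 to 465.2 ± 20.8 CPM. PKM was called lower than control in both other groups, and no difference between those groups was called (log2 0.01 ± 0.08).

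These counts are to be read against the background of all 21328 genes tested. With TGFb against control, 13.2% of all genes were called higher and 12.8% lower (26.0% in either direction) at an adjusted p under 0.05, and 6 members were called. With STINGX and TGFb against TGFb, 13.8% of all genes were called lower (27.5% in either direction), and 7 of the 10 members were. With STINGX and TGFb against control, 17.0% of all genes were called lower (34.2% in either direction), and 10 of 10 members were. The 7 members called lower against both other groups compare with 7.57% of all genes. The median log2 fold change of the members was -0.21, -0.60 and -0.64 in these 3 comparisons, against -0.00401, 0.00627 and 0.00425 over all genes. The comparisons share libraries, so their counts are not separate evidence. The members were chosen with earlier results of these data known, and the background holds all tested genes, whatever their level.

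Scaling on the library total alone, in place of the trimmed mean of M-values, shifted the median of all genes by 0.147 on the log2 scale in STINGX and TGFb against TGFb, with 4997 genes then called higher and 1890 lower in place of 2931 and 2933. The split also moved with TGFb against control, to 2224 higher and 3523 lower in place of 2813 and 2730, and with STINGX and TGFb against control, to 4683 higher and 2876 lower in place of 3670 and 3626. In all 26 alternative fits, leaving out each library among them, every member difference called in the main fit kept its direction and stayed called. Differences not called in the main fit did not all stay so, and those of ALDOA and GAPDH passed in some fits. In bulk RNA, fewer cells of a type and less RNA per cell cannot be told apart.

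**Figure D2:**
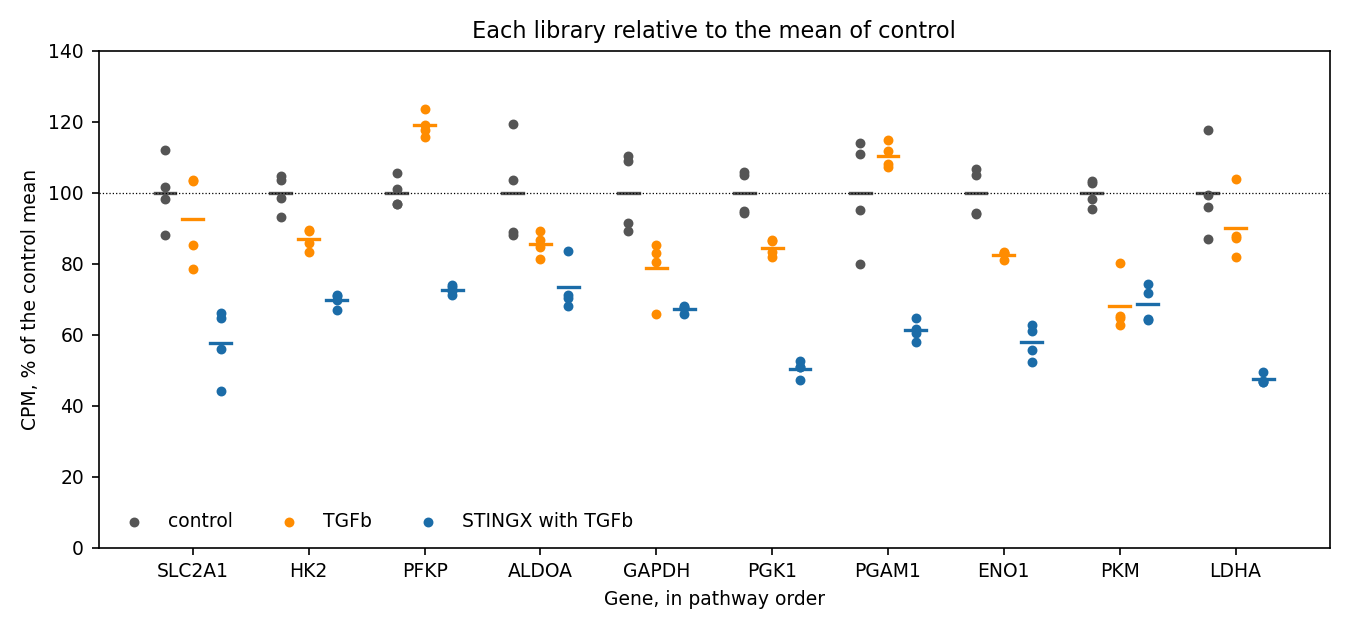
CPM of each gene in each library as a percentage of that gene's control mean (dotted line); points are libraries, bars are means of 4. The STINGX with TGFb points lie below every control point for all 10 genes, and the TGFb means of PFKP and PGAM1 lie above control, of which PGAM1 was not called.

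SLC2A1 encodes GLUT1, the basal glucose transporter. Its level was 121, 133, 105 and 117 CPM in control replicates 1 to 4, 93.4, 123, 123 and 102 CPM with TGFb, and 78.8, 77.2, 66.8 and 52.6 CPM with STINGX and TGFb. All 4 STINGX and TGFb libraries lay below every other library, and the control and TGFb ranges overlapped. The log2 fold change was -0.11 ± 0.13 (SE) with TGFb against control (adjusted p = 0.608, edgeR quasi-likelihood test with Benjamini-Hochberg adjustment), -0.68 ± 0.13 with STINGX and TGFb against TGFb (adjusted p = 0.00246) and -0.79 ± 0.13 against control (adjusted p = 0.00069). The first value ran from -0.169 without control replicate 3 or TGFb replicate 2 to -0.0387 without TGFb replicate 1, and was also smaller without control replicate 2 or TGFb replicate 4. SLC2A1 was the member with the widest relative spread in the STINGX group, its lowest library being at 52.6 CPM.

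HK2, the inducible hexokinase that binds mitochondria, phosphorylates glucose after entry. The 12 libraries read 107, 101, 106 and 95.0 CPM in control replicates 1 to 4, 91.0, 91.4, 85.0 and 87.7 CPM with TGFb, and 71.3, 72.9, 72.4 and 68.4 CPM with STINGX and TGFb. The 3 groups did not overlap, with control the highest and STINGX and TGFb the lowest. By the edgeR quasi-likelihood test HK2 was lower in all 3 comparisons, with log2 fold changes of -0.20 ± 0.05 with TGFb (adjusted p = 0.00669), -0.32 ± 0.05 with STINGX on top of TGFb (adjusted p = 0.000256) and -0.52 ± 0.05 against control (adjusted p = 2.99e-06).

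PFKP, the platelet-type subunit of phosphofructokinase, catalyses the committed step. It was at 276, 301, 288 and 276 CPM in control replicates 1 to 4, 339, 335, 329.7 and 352 CPM with TGFb, and 209.5, 211, 203 and 206 CPM with STINGX and TGFb. The groups again did not overlap, but here TGFb libraries were the highest and STINGX libraries the lowest. PFKP rose with TGFb by 0.25 ± 0.04 on the log2 scale (adjusted p = 0.000271, edgeR) and was the only member called higher in any of the 3 comparisons. With STINGX the level was -0.71 ± 0.04 relative to TGFb (adjusted p = 2.31e-08) and -0.46 ± 0.04 relative to control (adjusted p = 1.11e-06).

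ALDOA, the aldolase of muscle and most growing cells, splits fructose bisphosphate. Its level was 812, 937, 691 and 698 CPM in control replicates 1 to 4, 664, 680.2, 700.5 and 639 CPM with TGFb, and 535, 657, 552 and 559 CPM with STINGX and TGFb. Control replicate 2 was the highest library, and the TGFb range overlapped with both other groups. The log2 fold change was -0.23 ± 0.09 with TGFb (adjusted p = 0.103, edgeR) and -0.22 ± 0.09 with STINGX and TGFb against TGFb (adjusted p = 0.108), neither past the threshold. Against control the STINGX libraries were lower, at -0.45 ± 0.09 (adjusted p = 0.00293). The first value was -0.13 (adjusted p = 0.264) without control replicate 2. Both steps that missed the threshold depended on single libraries: without control replicate 3 the first reached an adjusted p of 0.0471, and without control replicate 2 or STINGX and TGFb replicate 2 the second reached 0.0377 and 0.0403.

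GAPDH oxidises glyceraldehyde phosphate and makes the NADH of the pathway, and it is often used as a reference gene. The 12 libraries read 6397, 6314, 5177 and 5299 CPM in control replicates 1 to 4, 4951, 4810, 3822 and 4667 CPM with TGFb, and 3945, 3911, 3821 and 3939 CPM with STINGX and TGFb. Every TGFb library lay below every control library, and TGFb replicate 3, at 3822 CPM, lay within the STINGX range. GAPDH fell with TGFb, with a log2 fold change of -0.35 ± 0.09 (adjusted p = 0.0111, edgeR) and was lower, at -0.57 ± 0.09 in STINGX and TGFb against control (adjusted p = 0.000308). The step from TGFb to STINGX and TGFb, -0.22 ± 0.09, missed the threshold (adjusted p = 0.0758), but passed it without TGFb replicate 3 (adjusted p = 0.00802) and with a term for replicates 1 and 2 against 3 and 4 (adjusted p = 0.0245), an alternative chosen after seeing the data.

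PGK1, phosphoglycerate kinase, yields the first ATP. It was at 969.6, 976, 871 and 875 CPM in control replicates 1 to 4, 799, 797, 768 and 757 CPM with TGFb, and 436, 485, 469 and 470.4 CPM with STINGX and TGFb. The 3 groups did not overlap, and the gap between TGFb and STINGX libraries was wider than that between control and TGFb. The log2 fold changes were -0.24 ± 0.05 with TGFb (adjusted p = 0.00212, edgeR), -0.75 ± 0.05 with STINGX and TGFb against TGFb (adjusted p = 1.43e-07) and -0.99 ± 0.05 against control (adjusted p = 8.98e-09).

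PGAM1, phosphoglycerate mutase, moves the phosphate group along the molecule. Its level was 466, 478, 335 and 399.6 CPM in control replicates 1 to 4, 469, 482, 453 and 449.7 CPM with TGFb, and 272, 259, 243 and 254 CPM with STINGX and TGFb. The TGFb libraries lay close together and inside the span that control replicate 3 widened, apart from TGFb replicate 2, which was the highest library. PGAM1 was at 0.14 ± 0.09 on the log2 scale with TGFb (adjusted p = 0.289, edgeR), a value that was 0.0477 without control replicate 3 and 0.211 without control replicate 2. STINGX libraries were lower than TGFb (-0.85 ± 0.09, adjusted p = 1.7e-05) and lower than control (-0.71 ± 0.09, adjusted p = 6.47e-05).

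ENO1, the ubiquitous enolase, makes phosphoenolpyruvate. The 12 libraries read 2350, 2315, 2079 and 2072 CPM in control replicates 1 to 4, 1830, 1829, 1787 and 1837 CPM with TGFb, and 1349, 1153, 1227 and 1383 CPM with STINGX and TGFb. No library of one group overlapped with another, and the TGFb libraries were the tightest group. ENO1 fell at each step, with log2 fold changes of -0.28 ± 0.06 with TGFb (adjusted p = 0.00385, edgeR), -0.51 ± 0.06 from TGFb to STINGX and TGFb (adjusted p = 3e-05) and -0.79 ± 0.06 from control (adjusted p = 5.43e-07).

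PKM, pyruvate kinase, yields the final ATP. It was at 1838, 1847, 1705 and 1756 CPM in control replicates 1 to 4, 1155, 1121, 1167 and 1433 CPM with TGFb, and 1283, 1144, 1329 and 1150 CPM with STINGX and TGFb. All 8 libraries with TGFb, with or without STINGX, lay below all 4 control libraries and overlapped with each other, TGFb replicate 4 being the highest of them. PKM fell with TGFb, with a log2 fold change of -0.55 ± 0.08 (adjusted p = 0.00014, edgeR), the largest fall of any member in that comparison. The difference between STINGX and TGFb and TGFb alone was 0.01 ± 0.08 (adjusted p = 0.948), and that from control was -0.54 ± 0.08 (adjusted p = 0.000122). The sign of the first of these changed with the library left out, between -0.03 and 0.10.

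LDHA, lactate dehydrogenase A, regenerates NAD+ from pyruvate. Its level was 889.9, 859.5, 1052 and 779 CPM in control replicates 1 to 4, 734, 929, 780.2 and 785 CPM with TGFb, and 419.5, 443, 418 and 418 CPM with STINGX and TGFb. The STINGX libraries were at most at 443 CPM and every other library was above 734 CPM, while control and TGFb overlapped. The log2 fold change was -0.15 ± 0.09 with TGFb (adjusted p = 0.251, edgeR), -0.93 ± 0.09 with STINGX and TGFb against TGFb (adjusted p = 6.58e-06) and -1.08 ± 0.09 against control (adjusted p = 1.49e-06). The first value was -0.0643 without control replicate 3 and -0.224 without TGFb replicate 2. LDHA had the largest fall of the 10 in both comparisons with STINGX.

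**Figure D3:**
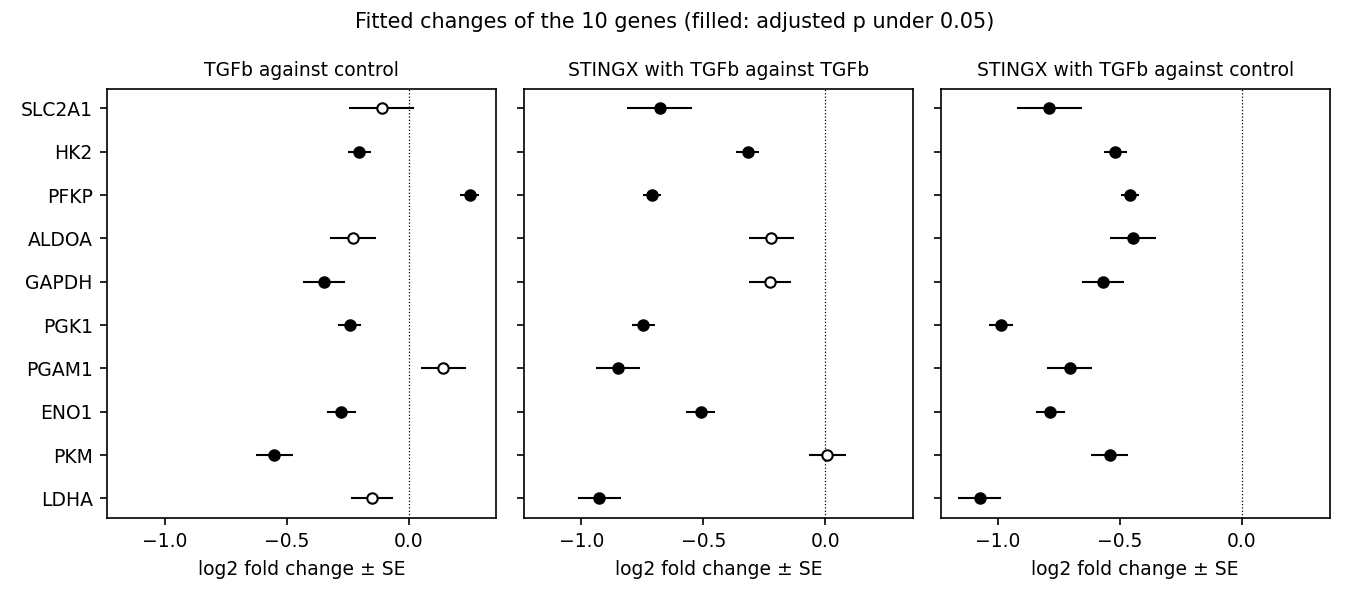
Fitted log2 fold change with its standard error for the 10 genes in the 3 comparisons, which share libraries; filled points have an adjusted p under 0.05 in edgeR's quasi-likelihood test. PKM lies at 0.01 in the middle panel and at -0.55 and -0.54 in the outer panels, while LDHA moves from -0.15 on the left to -0.93 and -1.08.

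Group ranges were also compared for overlap, on the same libraries and the same scaled CPM as the tests, so this is not separate evidence. With TGFb against control, 6 members did not overlap (5 below and PFKP above), where 27.1% of all genes did not. With STINGX and TGFb against TGFb, 7 members lay wholly below, where 15.7% of all genes did (31.6% in either direction), and against control 10 members lay wholly below, where 16.7% of all genes did (34.5% in either direction). Summed over the 10 members, the share of all gene counts was 1.33% ± 0.08 (SD, n = 4) in control, 1.04% ± 0.05 with TGFb and 0.891% ± 0.00985 with STINGX and TGFb.

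Several members have near-identical copies in the genome. GAPDH has 62 annotated pseudogenes that held 0.282 to 0.367% as many counts as the gene, PGAM1 has 13 with 0.608 to 1.66%, LDHA has 6 with 0.288 to 1.4% and ENO1 has 4 with 0.239 to 1.21%. The library protocol keeps strand, but whether the counting used it is not given in the sources used here, and GAPDH overlaps AC006064 on the opposite strand. ALDOA and LDHA overlap AC093512 and AC084117 on the same strand, and PGK1 overlaps ATP7A, PGAM4 and AL356235, 2 of them on its own strand and 1 on the opposite strand. Reads in such a shared stretch could be given to either gene.

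Most steps are shared with a second isozyme, and the member's share of the summed FPKM of a step shows whether the isozymes moved together. Over 6 shares and 3 comparisons, 18 exact two-sided permutation tests were run, with 4 against 4 libraries giving at the smallest p = 0.0286. Of the 18, 11 reached it and had an adjusted p of 0.0468 after Benjamini-Hochberg adjustment over the 18, which needs at least 11 at that smallest value. Leaving out any 1 library of TGFb or of STINGX and TGFb left 0 calls.

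The LDHA share of LDHA and LDHB, the heart-type subunit, was 50.7% ± 3.87 (SD, n = 4) in control, 46.9% ± 1.76 with TGFb and 36.0% ± 0.684 with STINGX and TGFb. LDHB itself was at 120.2, 121.1 and 110.6 FPKM in these groups, and LDHA was below LDHB in 3 of 4 control libraries, control replicate 3 being at a share of 56.4%, and in all 8 libraries with TGFb. The change was -10.9 percentage points against TGFb and -14.7 against control (exact permutation adjusted p = 0.0468 for both), and -3.78 points with TGFb against control (exact permutation adjusted p = 0.0857).

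The PFKP share of the 3 phosphofructokinase subunits was 51.8% ± 1.46 in control, 59.5% ± 1.04 with TGFb and 53.1% ± 1.08 with STINGX and TGFb, while PFKL and PFKM, the liver and muscle subunits, were at 29.7 and 10.3 FPKM in control and at 24.9 and 8.45 FPKM with TGFb. The rise of 7.66 points with TGFb and the change of -6.39 points with STINGX had an exact permutation adjusted p of 0.0468, and STINGX and TGFb against control, at 1.28 points, had 0.242. The SLC2A1 share of SLC2A1 and SLC2A3, the high-affinity neuronal-type transporter, was 56.8% ± 2.18, 70.8% ± 3.65 and 53.7% ± 4.14 in the same groups. With TGFb it was higher by 14.1 points while SLC2A1 itself was not called and SLC2A3 went from 11.4 to 5.45 FPKM, and with STINGX the change was -17.1 points (exact permutation adjusted p = 0.0468 for both).

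ALDOA held a larger share in each successive group. Of ALDOA and ALDOC, the brain-type aldolase, ALDOA made 86.6% ± 1.77 in control, 89.8% ± 0.7 with TGFb and 94.4% ± 0.529 with STINGX and TGFb, with all 3 differences at an exact permutation adjusted p of 0.0468. ALDOC was at 26.1, 16.0 and 7.87 FPKM. HK2 made 30.3% ± 3.7 of HK1 and HK2 in control, 27.2% ± 0.777 with TGFb and 25.5% ± 0.731 with STINGX and TGFb, and both differences of the STINGX group had an exact permutation adjusted p of 0.0468. The ENO1 share of the 3 enolases was 90.7%, 90.9% and 89.2%, and none of its 3 differences passed the threshold.

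**Figure D4:**
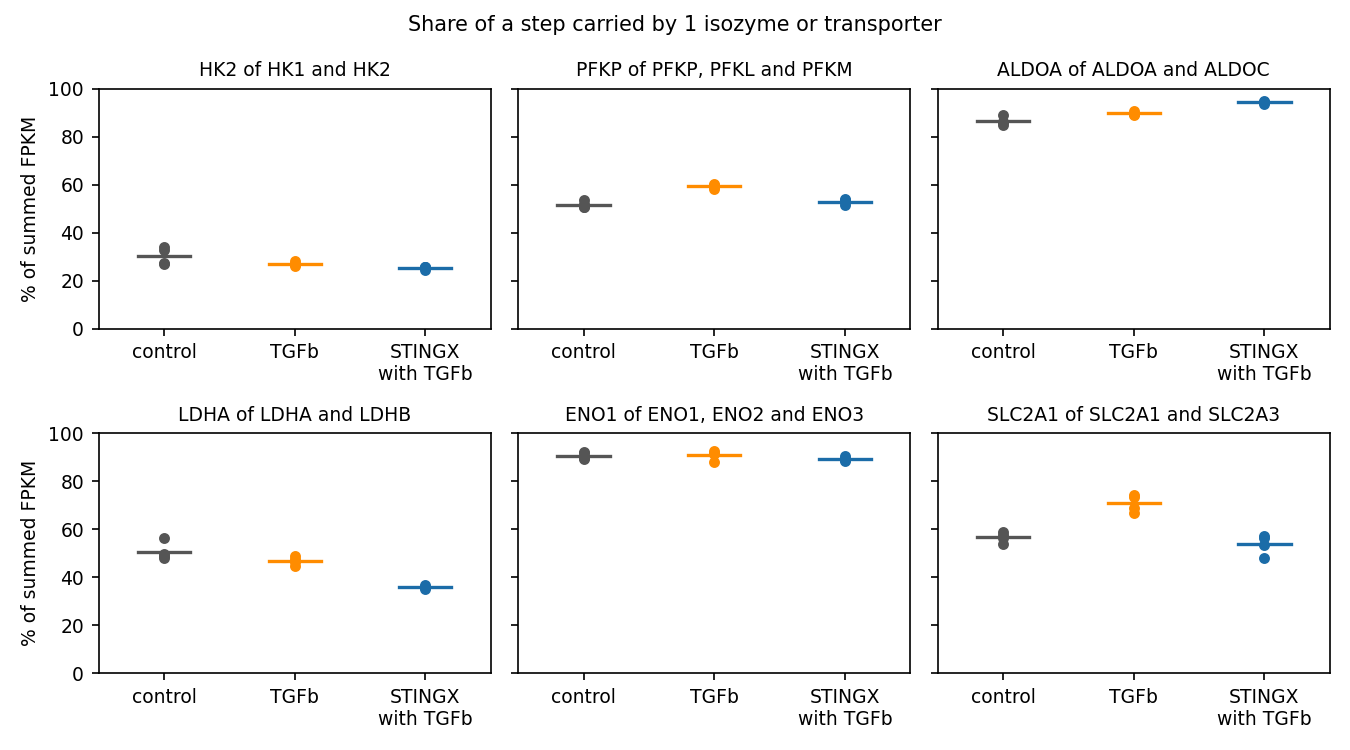
Share of the summed FPKM of a step carried by 1 isozyme or transporter (y axis, percent); points are libraries and bars are means of 4. The LDHA share drops to 35.3 to 36.9% in STINGX with TGFb, and the PFKP and SLC2A1 shares are highest with TGFb.

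The 25 PKM transcripts were grouped by the exons printed above: 6 M1-type transcripts with the whole M1 exon in their coding part, 3 M2-type coding transcripts, 1 with the M2 exon annotated for nonsense-mediated decay, 9 with a retained intron and 6 others. M2-type transcripts held 58.9% ± 5.49 (SD, n = 4) of PKM estimated counts in control, 48.7% ± 14.5 with TGFb and 54.9% ± 8.9 with STINGX and TGFb. With the decay-annotated transcript added, all transcripts with the whole M2 exon held 58.9% ± 5.49, 48.7% ± 14.5 and 71.2% ± 12.7 in these groups. M1-type transcripts held 18.6% ± 1.27, 25.2% ± 6.74 and 13.8% ± 7.83, so the M2 form was the larger in every group mean, although not in TGFb replicate 4 (27.2% M2-type and 35.1% M1-type). The M1-type share differed by 6.56 points with TGFb, by -11.4 points with STINGX on top of TGFb and by -4.88 points against control (exact permutation adjusted p = 0.129, 0.129 and 0.4). The first of these was 3.27 points without TGFb replicate 4. Of M1-type and M2-type counts alone, a denominator chosen after seeing the data, M1-type made 24.1%, 35.2% and 19.0%.

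Single libraries set much of the spread in these shares. The decay-annotated transcript ENST00000567118 held 37062 and 21024 counts in STINGX and TGFb replicates 1 and 3 and at most 1 count in the other libraries. The M1-type transcript ENST00000568459 held 22551 counts in TGFb replicate 4 and ENST00000561609 held 14534 in control replicate 4. Such estimates divide reads among transcripts that share most of their sequence, and how far that division sets these shares was not tested.

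The main M2 transcript, ENST00000335181, was the only one of 17 tested PKM transcripts to pass. It was lower with TGFb, at a log2 fold change of -0.94 ± 0.20 (adjusted p = 0.0355, edgeR quasi-likelihood test over 79677 transcripts), with 1.17% of all transcripts called lower and 2.33% in either direction, and lower with STINGX and TGFb against control, at -0.90 ± 0.20 (adjusted p = 0.0343), with 1.85% of all transcripts called lower, 1.6% higher and 3.45% in either direction. STINGX and TGFb against TGFb gave 0.04 ± 0.20 (adjusted p = 0.97), with 1.29% of all transcripts called lower, 1.12% higher and 2.4% in either direction, and no PKM transcript among them. Both calls were near the threshold: leaving out control replicate 1, 2 or 3 ended both (adjusted p = 0.103, 0.107 and 0.0645 for the first and 0.0913, 0.094 and 0.062 for the second). The first also ended without any one of the 4 TGFb libraries (adjusted p = 0.0565 to 0.0851), and the second without TGFb replicate 2 or 3 (adjusted p = 0.0518 and 0.054) or STINGX and TGFb replicate 1 or 3 (adjusted p = 0.103 and 0.0963).

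**Figure D5:**
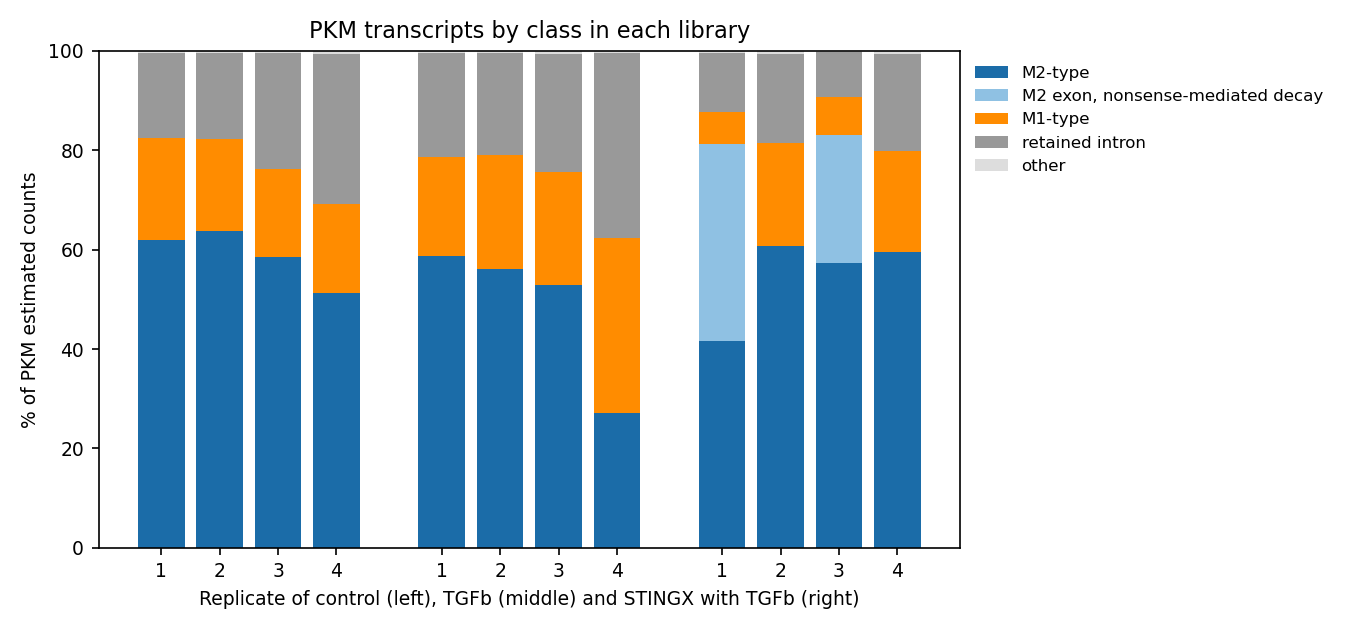
Percentage of PKM estimated counts in each transcript class for each of the 12 libraries; bars stack to the whole of PKM. The light segment of decay-annotated M2 transcript appears in STINGX with TGFb replicates 1 and 3, and TGFb replicate 4 has the largest M1-type segment at 35.1%.

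Of 24 other glycolytic enzymes and isozymes listed, 15 were tested: 2 rose and 3 fell with TGFb, where 13.2% of all genes rose and 12.8% fell. With STINGX and TGFb 0 rose and 5 fell against TGFb, where 13.7% of all genes rose and 13.8% fell, and 3 rose and 7 fell against control, where 17.2% rose and 17.0% fell. The counts of the lists that follow are to be read against the same shares, and several lie near them. The median log2 fold change of the 15 was -0.00119, -0.19 and -0.19 in these comparisons. TPI1, triose phosphate isomerase, fell from 1240 ± 199.9 to 738.1 ± 101.5 CPM with STINGX (log2 -0.75 ± 0.15, adjusted p = 0.00351, edgeR). PFKL fell from 277.3 ± 15.1 to 196.2 ± 4.42 CPM in the same comparison (log2 -0.50 ± 0.06, adjusted p = 2.18e-05). BPGM, which diverts bisphosphoglycerate past PGK1, rose with TGFb from 15.6 ± 0.398 to 41.0 ± 3.01 CPM (log2 1.39 ± 0.06, adjusted p = 3.92e-09). PKLR, the liver and red cell pyruvate kinase, was at 0 in every library.

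PFKFB4 belongs to the enzymes that make and break down a fructose bisphosphate that activates phosphofructokinase and is distinct from the glycolytic intermediate. PFKFB4 was at 41.6 ± 1.38 CPM in control, rose to 48.2 ± 1.79 with TGFb (log2 0.21 ± 0.05, adjusted p = 0.0093, edgeR, not called with scaling on the library total) and fell to 25.9 ± 1.28 with STINGX (log2 -0.90 ± 0.05, adjusted p = 7.26e-08). TIGAR, which breaks that activator down, also rose with TGFb, from 26.0 ± 0.445 to 31.9 ± 2.94 CPM (log2 0.30 ± 0.07, adjusted p = 0.00491, edgeR). These were the 2 that rose with TGFb of 4 tested genes of this list, and PFKFB4 was the 1 that fell with STINGX and TGFb against TGFb.

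Among 16 tested transporters for glucose and lactate other than SLC2A1, 2 rose and 4 fell with TGFb, and 4 rose and 2 fell with STINGX and TGFb against TGFb, beside 13.2%, 12.8%, 13.7% and 13.8% of all genes. SLC16A3, the lactate exporter MCT4, fell from 283.1 ± 36.4 to 186.9 ± 14.3 CPM with STINGX (log2 -0.60 ± 0.09, adjusted p = 0.000312, edgeR), as LDHA did. SLC2A3 rose in that comparison by 0.38 ± 0.04 (adjusted p = 2.46e-05), opposite to SLC2A1. For pyruvate entry to mitochondria, 1 of 13 tested genes rose and 5 fell with STINGX and TGFb against TGFb. PDK1, the kinase that holds pyruvate dehydrogenase off, fell from 33.6 ± 2.7 to 19.8 ± 0.461 CPM (log2 -0.76 ± 0.06, adjusted p = 1.94e-06, edgeR). The falls included PDHB, a subunit of pyruvate dehydrogenase itself (log2 -0.24 ± 0.05, adjusted p = 0.00387, edgeR), and PC (log2 -0.26 ± 0.07, adjusted p = 0.0165, edgeR). MPC2 was the 1 that rose (log2 0.45 ± 0.09, adjusted p = 0.00202, edgeR).

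Branches that leave glycolysis held calls in both directions. In the hexosamine and glycogen list, 6 of 14 rose and 5 fell with STINGX and TGFb against TGFb, and in the pentose phosphate list 2 of 8 rose and 1 fell. GFPT2, which starts the hexosamine pathway, rose with TGFb from 191.2 ± 1.67 to 307.9 ± 3.77 CPM (log2 0.69 ± 0.03, adjusted p = 1.01e-08, edgeR).

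Of 17 regulators of glycolytic genes, 1 rose and 5 fell with TGFb, and 5 rose and 5 fell with STINGX and TGFb against TGFb, beside the same 13.2%, 12.8%, 13.7% and 13.8% of all genes. HIF1A, whose protein binds ACGTG-containing elements, fell with TGFb from 413.6 ± 8.98 to 332.3 ± 8.75 CPM (log2 -0.32 ± 0.03, adjusted p = 7.09e-06, edgeR), and EPAS1, encoding HIF2α, from 589.3 ± 16.9 to 217.3 ± 6.5 CPM (log2 -1.44 ± 0.04, adjusted p = 2.33e-11). EPAS1 was at 284.2 ± 8.57 CPM with STINGX, a rise of 0.39 ± 0.04 over TGFb (adjusted p = 4.58e-06, edgeR). These are mRNA levels, and whether HIF1A or EPAS1 bears on the members was not tested. TXNIP, an inhibitor of glucose uptake, fell with TGFb from 91.7 ± 1.95 to 38.4 ± 1.01 CPM (log2 -1.25 ± 0.05, adjusted p = 5.97e-10). Of 6 factors known to choose between the PKM exons, 3 fell with STINGX and TGFb against TGFb: HNRNPA1, HNRNPA2B1 and NEK2, at log2 -0.46 ± 0.04, -0.56 ± 0.04 and -0.75 ± 0.08 (adjusted p = 4.08e-06, 2.83e-07 and 1.24e-05, edgeR).

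Over the 12 libraries, the genes whose log2 CPM ran most like PGK1 were APMAP (Pearson r = 0.996), CDKN3 (0.993) and SDC4 (0.993), and those most like LDHA were SREBF2 (0.975), CCNB2 (0.972) and ECT2 (0.972), among 6384 genes of at least 5 on that scale. The 12 points share the 3 treatments, and these values are a description.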

How the data were processed

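Poly(A) RNA of 12 LX2 libraries was sequenced in pairs from a stranded kit, per the labels' protocols. Per the submitters' processing notes, cutadapt, HISAT2, StringTie and edgeR were used with GRCh38. Their versions and settings: not given in the sources used here. Tables of estimated counts for genes and for transcripts, held as whole numbers, and of FPKM for genes were deposited. The deposited FPKM values are scaled to length and depth and were used for levels between genes and isozyme shares, and the deposited counts for tests. The transcript counts summed to the gene count for 60612 of 60612 genes.

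The test was that of edgeR 4.0.16, run in R 4.3.3 (quasi-likelihood, TMM scaling, filter at a minimum count of 10 and total of 15, all 3 groups in 1 fit), which kept 21328 genes and 79677 transcripts, with Benjamini-Hochberg adjustment over all of them and a threshold of 0.05. CPM are TMM-scaled. Members were tested in the whole table. Shares were compared with exact permutation tests. The edgeR test was also run on simulated counts, for TGFb against control only and with less spread between libraries than these data. The common coefficient of variation fitted to these data was 28%, so the run gives no error rate for them. Alternatives used DESeq2 1.42.0, limma 3.58.1 (voom, and log2 of FPKM plus 1 or 0.1), other scalings and filters, and each library left out. Over all tested genes, deviations of same-numbered replicates correlated between -0.0383 and 0.0452, so no pairing was used. Such a check does not exclude a pairing. The third principal component set replicates 1 and 2 of control and TGFb apart from 3 and 4, and a term for it was an added alternative. Outside the members, the genes named were chosen from up to 3 called genes with the largest rise and up to 3 with the largest fall in each list and comparison, at 1 FPKM or more in a group; for LDHA and PGK1, the members with the widest range of group means, the 3 most alike genes are named. The members and lists were chosen with earlier results of these data known. Exons were read from GENCODE 29.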

Additional observations from a re-analysis of the deposited data

Results flagged for a closer look

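Of 60 groups of 4 libraries examined for a lone extreme value by Dixon's criterion, 5 held one, and chance gives about 1 in 20. ENO1 in TGFb replicate 3 was at 1790 CPM, below a median of 1830 in the other libraries of the group. PKM in TGFb replicate 4 was at 1430 CPM against 1160, and LDHA in STINGX and TGFb replicate 2 at 443 CPM against 418. The HK2 share of HK1 and HK2 in STINGX and TGFb replicate 4 was 24.4% against 25.8%. The decay-annotated M2 transcript of PKM made 0.00144% of PKM counts in TGFb replicate 1, which is a single count, against 0 in the other libraries of the group.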

How the results depend on the processing

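The number of members called stayed at 6 to 7 with TGFb against control, 7 to 9 with STINGX and TGFb against TGFb and 10 with STINGX and TGFb against control over 26 alternatives, including the added term for replicates 1 and 2 against 3 and 4, which was chosen after seeing the data. Same-numbered replicates correlated in their deviations between -0.0383 and 0.0452, and not every library correlated best with its own number. With the replicate block, 6, 9 and 10 members were called; ALDOA and GAPDH passed in STINGX and TGFb against TGFb (adjusted p = 0.0424 and 0.0268, edgeR). The block left 0 of the 11 isozyme shares, since 4 pairs cannot go below an exact permutation p of 0.125, and 0 PKM transcripts called with TGFb against control. Leaving out a library gave 0 to 12 shares. PKM transcripts called with TGFb against control went from 1 to 0 without a filter and were 0 to 1 with a library left out; with STINGX and TGFb against control they went to 2 with limma-voom, to 0 without a filter and to 0 to 2 with a library left out. PKM with STINGX and TGFb against TGFb reversed to -0.00154 under upper quartile scaling and ran from -0.0316 to 0.0957 with a library left out, and the ENO1 share with TGFb against control from -0.404 to 1.16; the cause was not tested. ALDOA with TGFb against control passed with scaling on the library total (adjusted p = 0.0266), upper quartile scaling (0.0494) and limma on FPKM (0.0363 and 0.0352), and ALDOA with STINGX and TGFb against TGFb when only those groups were fitted (0.0288). With 4 libraries a group, the 0.01 ± 0.08 of PKM in STINGX and TGFb against TGFb does not show that the groups are equal.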

Other observations

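GAPDH is a common reference gene, and here it differed between the groups, so ratios to GAPDH differ from CPM. COL1A1, the main fibrillar collagen gene, had 2.76 times its control mean CPM with TGFb, and 3.52 times its control ratio to GAPDH. STINGX and TGFb against control gave COL1A1 at 0.713 by CPM and 1.05 by the ratio to GAPDH. LDHA in that comparison was at 0.475 by CPM and 0.696 by the ratio, PGK1 at 0.504 and 0.746, and HK2 at 0.698 and 1.03. PFKP with TGFb against control was at 1.19 by CPM and 1.51 by the ratio, and PGAM1 at 1.1 and 1.42. These ratios were computed after seeing the data and were not tested.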
